A study of Homo sapiens with 14 samples.

Results

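The genes described here encode the proteins of the cytosolic ribosome. They were taken by name: every row whose gene symbol is RPL or RPS followed by a number, with or without a final A, X or L form, together with RPLP0, RPLP1, RPLP2 and RPSA, provided that the gene reached 1 CPM in at least 2 libraries (CPM being a gene's counts scaled for the size of the library). Of 56479 rows in the deposited table, 84 had such a name and 82 were kept, 50 of the large subunit (RPL) and 32 of the small subunit (RPS). RPL3L and RPL10L stayed below the level, with at most 0.889 and 0.155 CPM in any library, and the members nearest to it were RPL26L1, RPL39L and RPL22L1, whose second highest libraries held 20.4, 23.0 and 37.2 CPM. FAU and RPL36AL, which also encode ribosomal proteins, do not carry such names and are given with the related genes.

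RNA of 2 human liver cancer lines, wild type per the labels, was compared. The groups were HepG2 (labelled hepatoblastoma) kept for 5 days on dishes in medium with 4% polyethylene glycol 300 (PEG) or in isotonic medium, and HepG2 on transwell membranes under a weight or uncompressed. Hep3B (labelled hepatocellular carcinoma) were kept on transwell membranes under a weight, in 3% PEG or uncompressed. PEG raises the osmolarity of the medium and draws water from the cells, whereas the weight presses on them. Each of the 7 groups had 2 libraries; the labels call those from dishes biological replicates. The sources used here give neither the load nor the time on the membranes.

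Ribosomal proteins assemble with ribosomal RNA in the nucleolus into a large subunit, which forms peptide bonds, and a small subunit, which reads the mRNA. Their mRNAs are among the most abundant of a growing cell, and most begin with a cytosine followed by an unbroken run of pyrimidines, the terminal oligopyrimidine (TOP) tract, through which mTOR and LARP1 set their translation and stability. Liver cells use many ribosomes to make the plasma proteins that they secrete.

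The start sites of genes named below are shown first: RPSA, RPS16, RPL21 and RPL15 are among those that fell most under 4% PEG, RPS26, RPL26L1 and RPL7L1 are those that did not fall, and RPL26, RPS27 and RPS27L are members of pairs described together. No test ties the start sequence to the change. RefSeq promoter windows (GRCh38.p14) were matched by symbol for 66 of the 82 genes. Where a gene had several windows the first listed was kept, so a run at another start would be missed. Each line holds 10 bases before and 20 bases from the annotated start, read 5′ to 3′ on the gene's own strand, and capitals mark a C followed by at least 4 C or T that begins within 5 bases of that start.
RPSA: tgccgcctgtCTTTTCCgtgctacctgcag
RPS16: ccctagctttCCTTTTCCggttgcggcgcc
RPL21: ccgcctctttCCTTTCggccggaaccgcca
RPL15: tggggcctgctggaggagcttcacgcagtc
RPS26: acataacctcgattttcttccgccatccgg
RPL26L1: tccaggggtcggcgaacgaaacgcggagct
RPL26: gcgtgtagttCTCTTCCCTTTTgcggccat
RPL7L1: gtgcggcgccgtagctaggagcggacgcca
RPS27: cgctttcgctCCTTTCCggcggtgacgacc
RPS27L: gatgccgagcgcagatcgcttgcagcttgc
These windows lie at chr3:39406710-39406739 (plus strand, RPSA), chr19:39435930-39435959 (minus, RPS16), chr13:27251548-27251577 (plus, RPL21), chr3:23916535-23916564 (plus, RPL15), chr12:56041908-56041937 (plus, RPS26), chr5:172958719-172958748 (plus, RPL26L1), chr17:8383174-8383203 (minus, RPL26), chr6:42879606-42879635 (plus, RPL7L1), chr1:153990752-153990781 (plus, RPS27) and chr15:63157458-63157487 (minus, RPS27L). The window of RPS26 does hold a pyrimidine run just past the start, ttttcttcc, but it opens with T and not with C. A run that begins exactly at the annotated start was present in 43 of 66 genes (65.2%), against 4.04% of all 27305 RefSeq promoters. Allowing 5 bases either way, 51 of 66 (77.3%) held one, against 21.1% of all promoters. In the whole window of 300 bases, both strands read, CCGGAAG was found in 34.8% of the genes and 10.7% of all promoters, and AAGATGG in 13.6% against 6.06%. The shares were 25.8% against 32.9% for GGGCGGG, 6.06% against 7.43% for CACGTG and 9.09% against 12% for TATAAA.

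Libraries held 21161950 to 35394448 counts. The paired libraries of the dish groups differed far more from each other than those of the membranes. Their biological coefficient of variation was 0.290 in 4% PEG and 0.320 in isotonic medium, and 0.0459 to 0.0705 in the 5 membrane groups. RB1, a tumour suppressor gene that Hep3B has lost, matched the labels, at 2.63 to 4.94 CPM in Hep3B against 101 to 147 CPM in HepG2. The 8 liver markers summed to 32434 and 29624 CPM in 4% PEG, against 127168 and 116404 CPM in isotonic medium, and 7 of 8 fell, led by albumin (ALB, log2 change -4.21) and alpha-fetoprotein (AFP, -3.68). Mitochondrially encoded genes took 7.34% and 5.05% of the counts in 4% PEG, against 1.87% and 0.999% in isotonic medium. Markers of other cells were low: the 4 fibroblast markers summed to 1.87 to 27.0 CPM, nearly all of it PDGFRB, and the 4 endothelial markers to 0.494 to 14.9 CPM. Of the 4 immune markers PTPRC and CD3E reached at most 0.121 and 0.272 CPM, CD68 at most 10.9 CPM, and only LYZ was abundant, with 485 to 4926 CPM in HepG2. The part of these differences in the results below was not tested.

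Ribosomal protein genes took a smaller part of the RNA after 4% PEG and in Hep3B. They held 2.32% and 2.39% of all counts in the 4% PEG libraries, against 4.40% and 5.42% in the isotonic libraries, so that the mean share in PEG was 0.481 times that in isotonic medium (2.36 ± 0.0489% against 4.91 ± 0.725%, SD, n = 2 each). In the membrane groups the share was 4.71% and 4.67% in weighted HepG2 against 4.41% and 4.53% in uncompressed HepG2. In Hep3B it was 3.07% and 2.94% under the weight and 2.97% in both 3% PEG libraries, against 2.87% and 2.78% without compression. The shares of both 4% PEG libraries lay below those of the other 12, and every Hep3B library lay below every HepG2 library outside 4% PEG. With 2 libraries against 2, an exact permutation test cannot give a p below 0.333, so the shares are descriptions. In RNA from whole cultures, fewer cells of a type and less RNA per cell cannot be told apart.

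**Figure D1:**
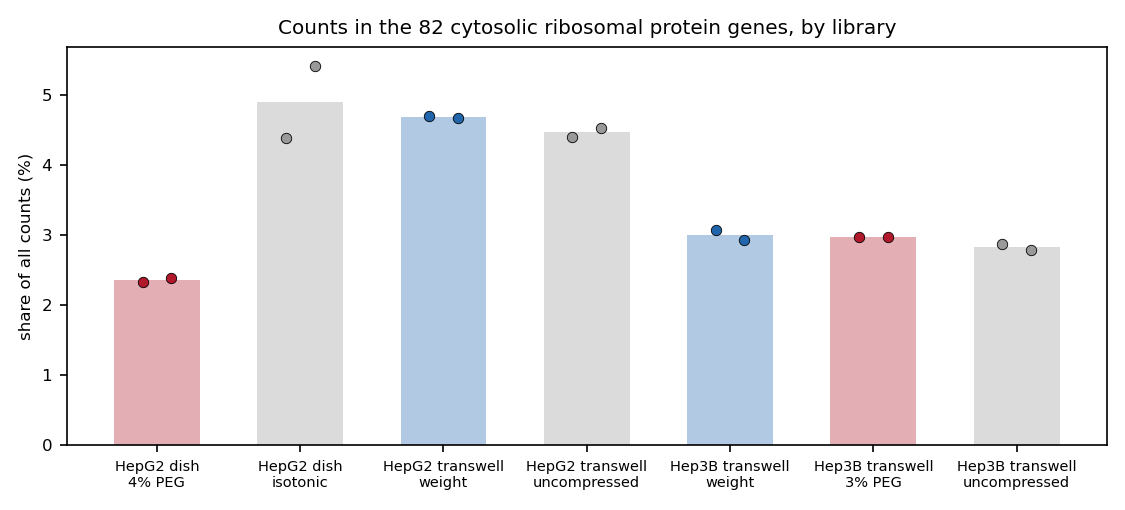
Share of all counts (%) that fell in the 82 cytosolic ribosomal protein genes, with a point for each library and a bar for the mean of the 2 libraries of a group. The 4% PEG libraries stand at 2.32% and 2.39%, below the isotonic libraries at 4.40% and 5.42%, and the Hep3B groups lie between 2.78% and 3.07%.

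Under 4% PEG on dishes nearly the whole set fell in HepG2. Of 82 genes, 79 were lower and 2 higher than in isotonic medium at an adjusted p under 0.05 (edgeR's quasi-likelihood test on all 14 libraries, Benjamini-Hochberg over 19232 genes); over all genes tested 23% were lower and 23.9% higher. The median log2 change of the 82 genes was -1.38, with quartiles of -1.56 and -1.16, beside 0.01 over all genes. Both subunits took part, with 48 of 50 large subunit genes lower (median -1.31) and 31 of 32 small subunit genes lower (median -1.43), and 69 genes fell by more than 1 on the log2 scale. For 79 genes both PEG libraries lay below both isotonic libraries, which was so for 28.7% of all genes. In the fit to all libraries the dish groups share their spread with the quieter membrane pairs. Standard errors and p-values given for 4% PEG may therefore be too small. When the dish libraries were fitted on their own, 67 genes were called lower and 0 higher, and DESeq2 on all libraries again gave 79 and 2. The shares over all genes in these fits are not given here. The second isotonic library held the highest share of counts, and without it the median was -1.16 with 77 genes lower. Scaling by total counts alone raised the median of all genes to 0.37, and the genes described here then had a median of -1.03, with 76 lower and 3 higher.

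**Figure D2:**
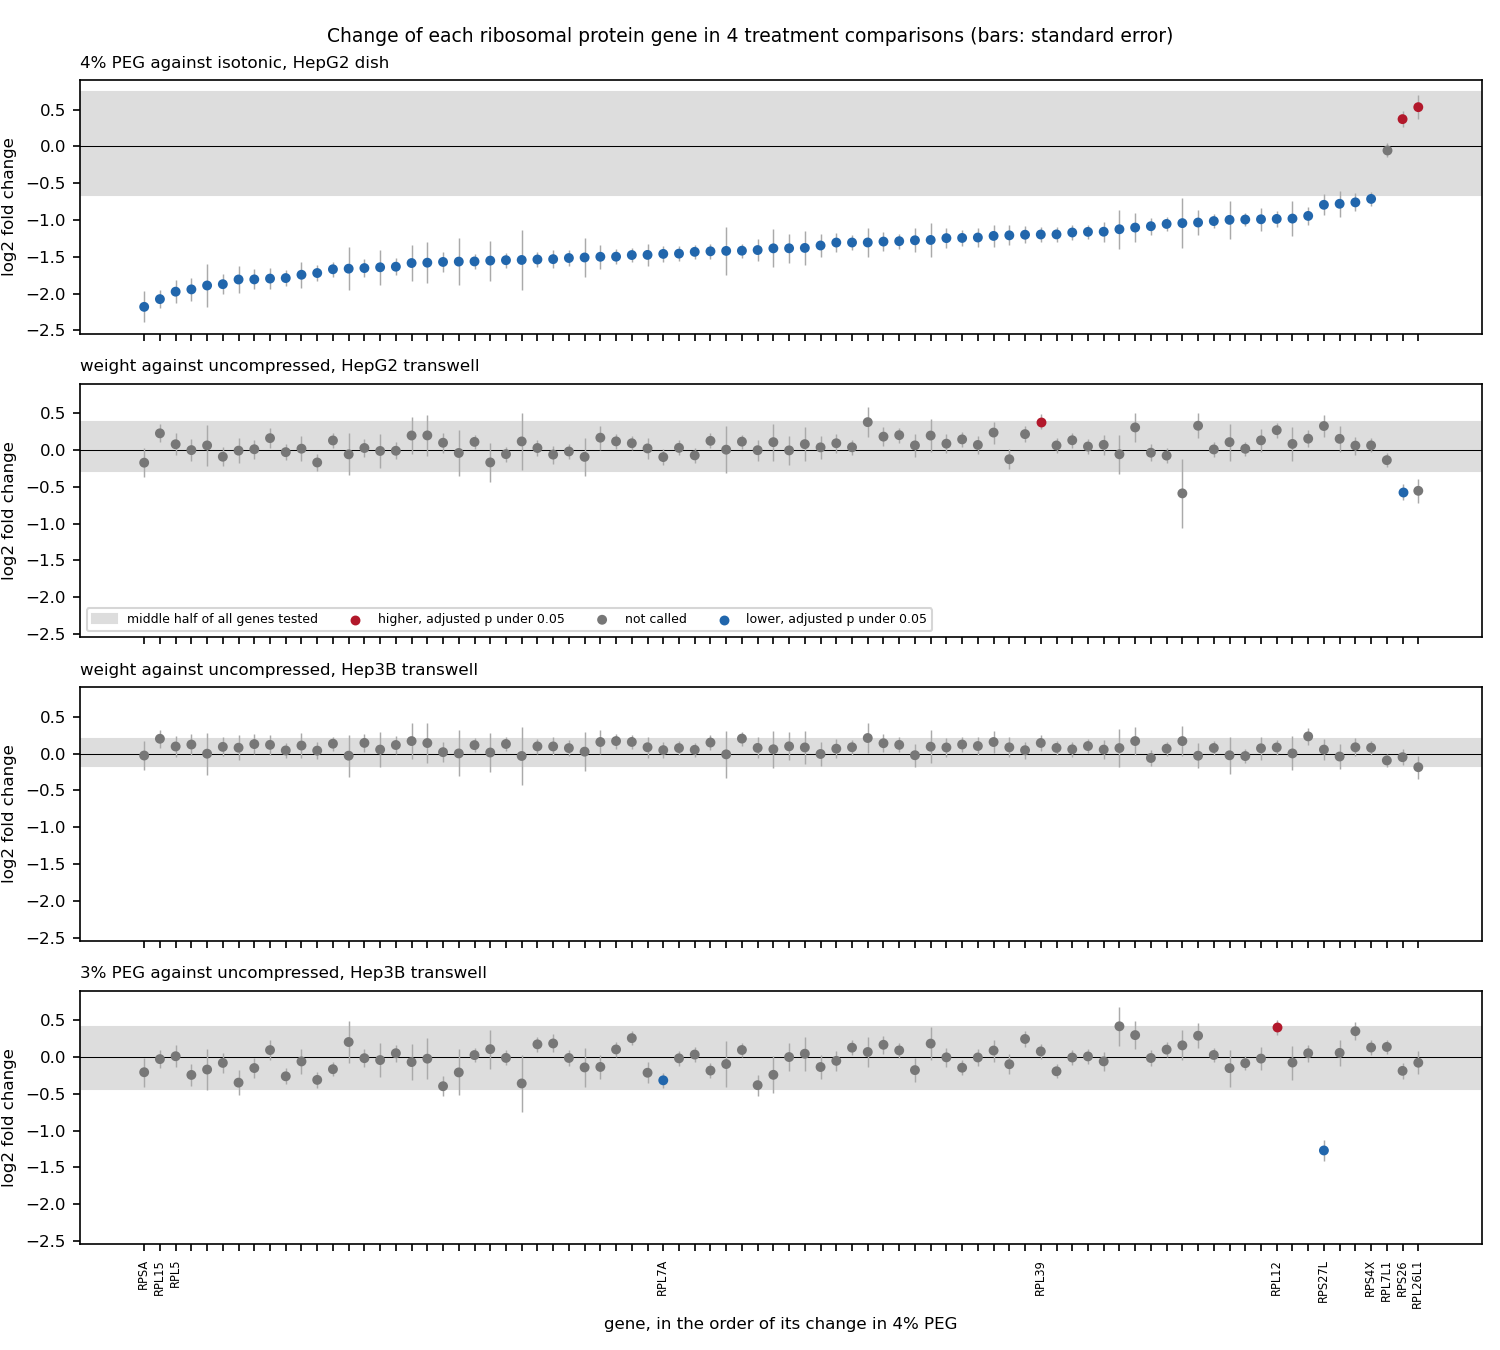
Log2 fold change (bars: standard error) of each of the 82 genes in the 4 treatment comparisons, the genes in the order of their change under 4% PEG, with the grey band marking the quartiles of all genes tested and a few of the genes labelled. Under 4% PEG all but 3 points lie between -0.71 and -2.18, while in the other 3 comparisons most lie close to 0.

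The deepest fall was that of RPSA, a small subunit protein that was first named as a laminin receptor. It had 106 and 145 CPM in 4% PEG, against 429 and 710 CPM in isotonic medium, a log2 change of -2.18 ± 0.21 (SE; edgeR, adjusted p = 6.441e-06), or 4.53-fold lower. RPL15, a large subunit protein, had 199 and 236 CPM in PEG against 820 and 1016 CPM in isotonic medium (log2 change -2.07 ± 0.13, adjusted p = 1.739e-07 in the same test). No PEG library of either gene came near an isotonic one. RPL5, which travels with RPL11 and a small ribosomal RNA into the large subunit and binds MDM2 when free, had 484 and 341 CPM against 1766 and 1475 CPM (-1.97 ± 0.15). RPS16 of the small subunit and RPL21 of the large subunit had changes of -1.94 ± 0.15 and -1.87 ± 0.13. The printed window of RPL15 holds no run of the kind marked there, and a link to its change was not tested.

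Among genes with a particular role, the stalk proteins, which recruit the elongation factors to the large subunit, fell together. RPLP0 had 345 and 571 CPM in PEG against 915 and 1771 CPM in isotonic medium (log2 change -1.55 ± 0.27), and RPLP1 and RPLP2 changed by -1.13 ± 0.27 and -1.38 ± 0.20. In all 3 the second library of each group held the higher value, and the groups did not overlap. RPS6, the substrate of the S6 kinases, had 699 and 560 CPM in PEG against 1926 and 2032 CPM (-1.65 ± 0.13). RPL11, the partner of RPL5, changed less than RPL5, by -1.24 ± 0.10. RPL3 and RPL10, which lie close to the site of peptide bond formation, changed by -1.81 ± 0.18 and -1.58 ± 0.25. RPS27A, made as a fusion with ubiquitin, had 456 and 420 CPM in PEG against 907 and 865 CPM, a change of -1.01 ± 0.10.

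The smallest falls among the genes called lower were those of RPS4X, RPL14, RPL28 and RPS27L. RPS4X had 590 and 569 CPM in PEG against 905 and 996 CPM in isotonic medium (log2 change -0.71 ± 0.10; edgeR, adjusted p = 9.22e-05). RPL14 and RPL28 changed by -0.76 ± 0.12 and -0.78 ± 0.17, and in these 3 genes the PEG libraries still lay below both isotonic libraries. RPS28 varied most within groups, with 35.7 and 77.8 CPM in PEG against 88.9 and 242 CPM in isotonic medium (-1.54 ± 0.40, adjusted p = 0.00785); without the second isotonic library its change was -0.65 and no longer passed the test. Among the genes named here, fitting the dish libraries alone lost the calls of RPS4X, RPL14, RPL28, RPS27L, RPS28, RPLP1, RPL22L1 and RPL39L.

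The exceptions were RPS26, RPL26L1 and RPL7L1, none of which has a marked run in the window printed above. RPS26, which in yeast contacts the mRNA at its exit from the small subunit, had 70.4 and 71.8 CPM in PEG against 50.8 and 59.3 CPM in isotonic medium (log2 change 0.37 ± 0.11; edgeR, adjusted p = 0.01539). RPL26L1, the near-identical copy of RPL26, had 19.8 and 17.98 CPM against 11.6 and 14.6 CPM (0.53 ± 0.16, adjusted p = 0.016). Both PEG libraries were the higher for each gene. Both calls depended on the setting. Both were lost without the low count filter, on the dish libraries alone and without the first isotonic library, and that of RPL26L1 also without the first PEG library; both were kept on the dish libraries alone when equal replicate numbers entered as a block. RPL7L1, a relative of RPL7 thought to act in large subunit assembly, had 267 and 257 CPM in PEG against 281 and 261 CPM, overlapping values with a change of -0.05 ± 0.09 (adjusted p = 0.6929); scaled by total counts alone its change was 0.30 and was called higher. Among the matched genes, the 51 with a marked run had changes of -2.18 to -0.76 (median -1.38), and the 15 without one had changes of -2.07 to 0.53 (median -1.16).

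Paralogue forms that carry a member's name are given beside their partners. RPL26 had 217 and 143 CPM in PEG against 457 and 316 CPM in isotonic medium, a log2 change of -1.10 ± 0.20, against 0.53 ± 0.16 for RPL26L1. RPL7 changed by -1.24 ± 0.12, and RPL7L1 had overlapping values. RPL22, a large subunit protein, had 135 and 112 CPM in PEG against 436 and 417 CPM (-1.79 ± 0.11), and its paralogue RPL22L1 had 25.1 and 17.5 CPM against 42.1 and 45.1 CPM (-1.03 ± 0.17). RPS27 and its paralogue RPS27L changed by -1.25 ± 0.13 and -0.79 ± 0.14. RPL39, which lines the exit tunnel, changed by -1.20 ± 0.10, and its paralogue RPL39L, known in mice for a role in sperm formation, was nearly absent from HepG2, with 10 and 11 raw counts in PEG against 25 and 11 in isotonic medium (-1.04 ± 0.34). The differences between a form and its partner were not tested.

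**Figure D3:**
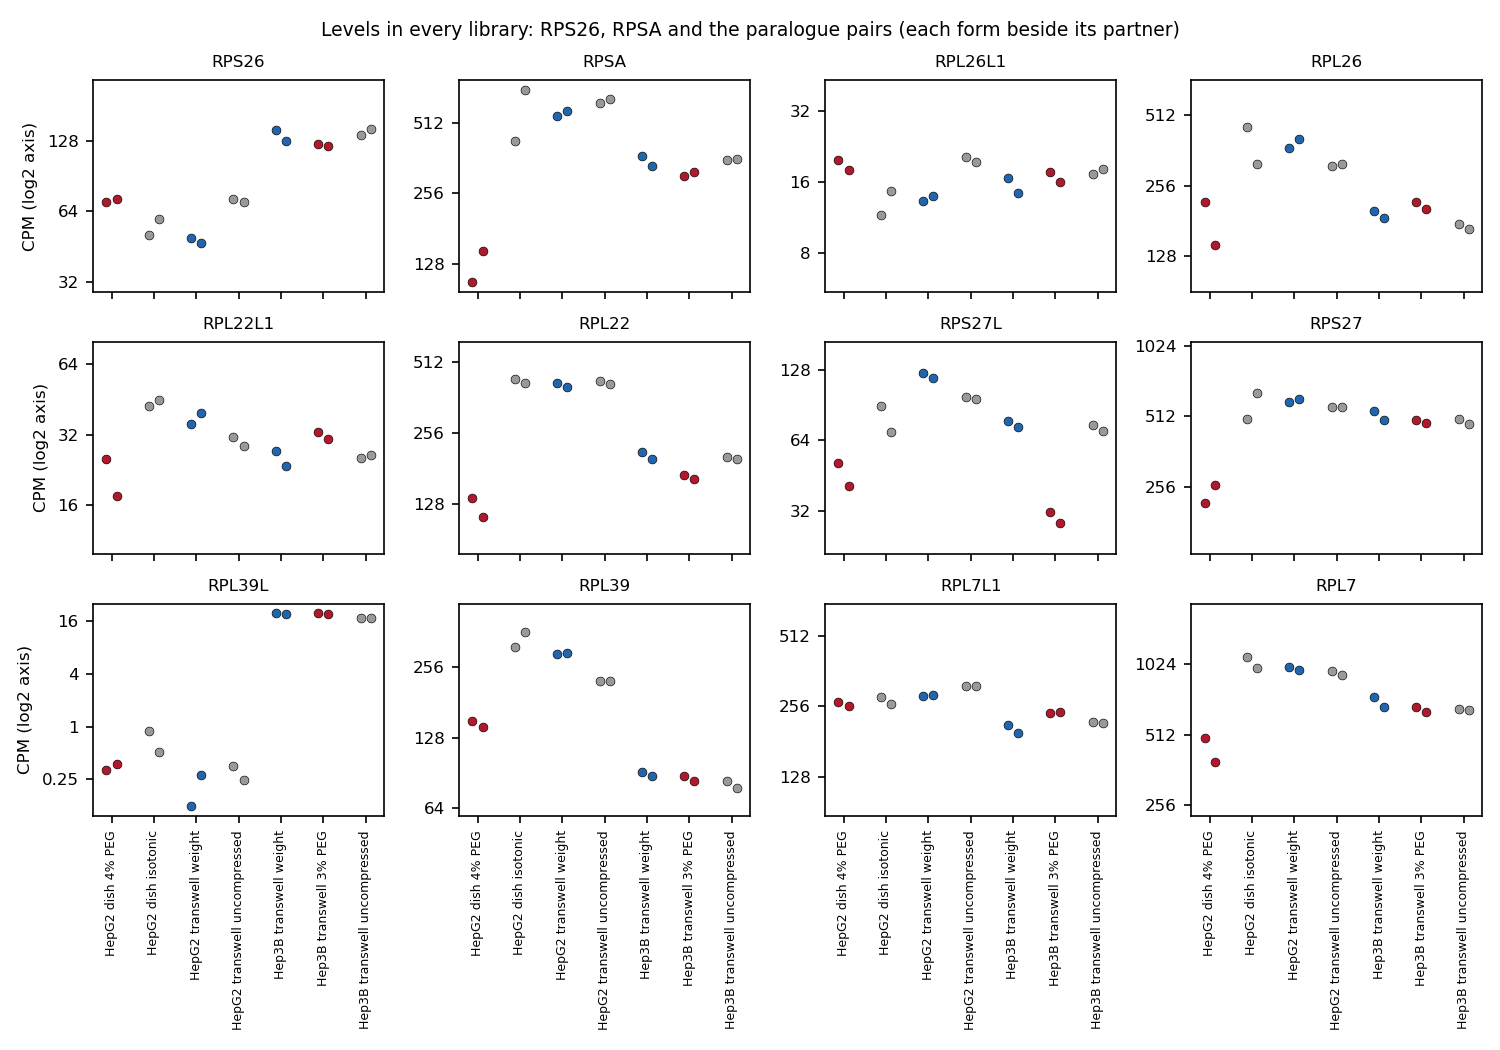
CPM (log2 axis) in every library of RPS26, RPSA and 5 paralogue forms, each beside its partner, with red for PEG, blue for the weight and grey for isotonic or uncompressed cultures. RPS27L drops in Hep3B in 3% PEG while RPS27 keeps its level, and RPL39L is high in Hep3B alone.

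Genes related to the ribosomal proteins fell with them under 4% PEG. Of 24 other TOP mRNAs, 19 were lower and 0 higher (median log2 change -1.05), where 23% of all genes were lower at the same test. Of the 24, VIM (at most 0.0933 CPM in any HepG2 library) and EEF1G (at most 0.707 CPM in any library) were nearly absent. HNRNPA1, an RNA-binding protein, and the elongation factor subunits EEF1D and EEF1B2 changed by -1.81 ± 0.14, -1.71 ± 0.28 and -1.61 ± 0.17. FAU and RPL36AL, ribosomal protein genes outside the name rule, had changes of -0.14 and -0.01 that did not pass the test. Of 11 host genes of small nucleolar RNAs, whose transcripts also carry TOP tracts, 10 were lower (median -1.26), led by SNHG7 at -2.50 ± 0.21 and SNHG29 at -2.48 ± 0.16, and SNHG12 at 0.16 was the one not called. Of 9 ribosomal protein chaperones and assembly factors in the table, 5 were lower, among them NAP1L1 at -1.29 ± 0.24 and NACA at -1.06 ± 0.11. NAP1L1, NACA and BTF3 are on the TOP list as well, so these lists overlap and their counts are not separate. Of 77 mitochondrial ribosomal proteins, 30 were lower and 3 higher (median -0.33).

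Of the 18 genes that control TOP mRNAs 4 were higher and 2 lower under 4% PEG, near or below the shares over all genes (23.9% and 23%). SESN2, which restrains mTOR when amino acids are short, was higher by 2.26 ± 0.32 on the log2 scale, and MTOR itself by 1.28 ± 0.18. DEPTOR, an inhibitor bound to mTOR, was lower (-1.76 ± 0.25). MYC, on the same list, had 88.2 and 101 CPM in 4% PEG against 183 and 216 CPM in isotonic medium. In 3% PEG in Hep3B, where 11.5% of all genes were lower and 11% higher, 2 of the 24 other TOP mRNAs were lower and none higher at an adjusted p under 0.05 in edgeR, namely HNRNPA1 at -0.60 ± 0.13 and RPL36AL at -0.58 ± 0.16. Of the nucleolar RNA hosts 5 of 11 were higher there and 1 lower (median 0.52): EPB41L4A-AS1, an antisense gene whose reads cannot be told apart from its partner's unless strand was used, was higher by 1.21 ± 0.20, and GAS5 by 1.00 ± 0.12. Control genes were higher in 5 of 18 and lower in 0. DDIT4 and SESN2, both restrainers of mTOR, changed by 2.15 ± 0.18 and 2.01 ± 0.31. MYC had 155 and 157 CPM in 3% PEG against 74.8 and 83.8 CPM in uncompressed Hep3B. The ribosomal protein genes had a median change of -0.01. Of the mitochondrial ribosomal proteins 13 of 77 were lower there and 2 higher, and of the chaperones 1 of 9 was lower; the shares of TOP mRNAs and chaperones called lower lie near or below that of all genes.

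**Figure D4:**
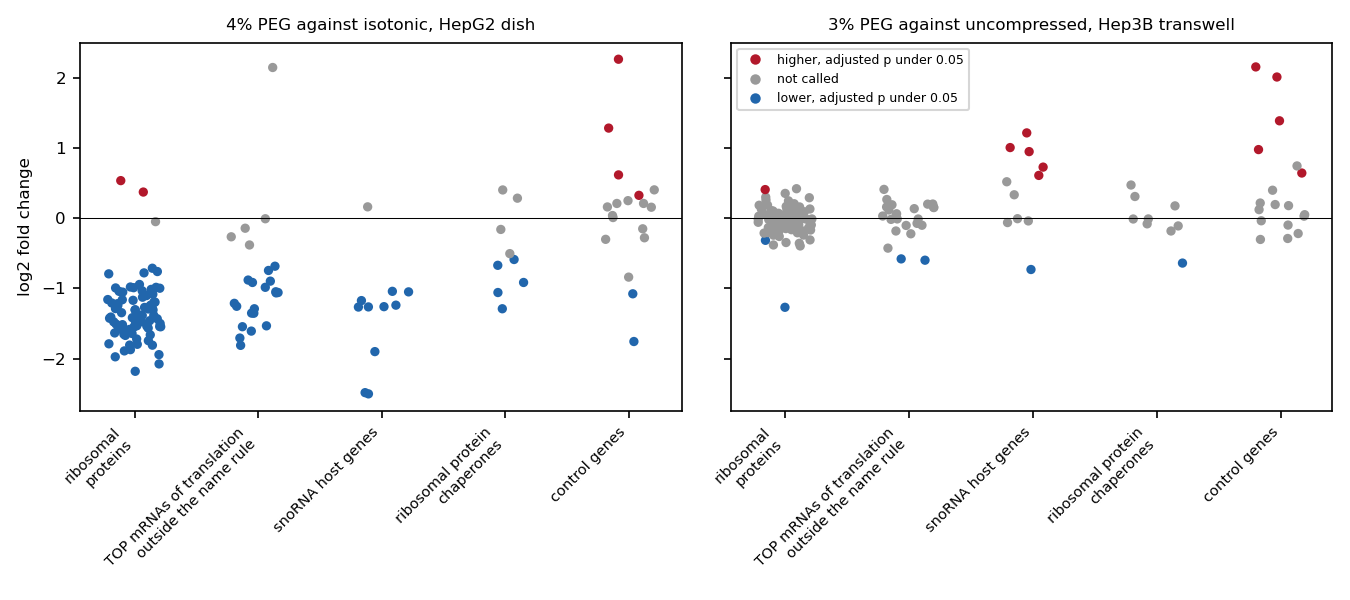
Log2 fold change of each ribosomal protein gene and of each gene in 4 related lists, under 4% PEG in HepG2 (left) and 3% PEG in Hep3B (right), coloured by call. On the left the ribosomal proteins, the other TOP mRNAs and the small nucleolar RNA hosts lie mostly below -0.5; on the right the ribosomal proteins cluster at 0 and 5 of 11 hosts are higher.

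The weight on HepG2 left most ribosomal protein genes near their uncompressed level. Of 82 genes 1 was lower and 1 higher (edgeR over all 14 libraries, adjusted p under 0.05), where 4.18% of all genes were lower and 5.4% higher; the median log2 change was 0.06 beside 0.00 over all genes. Both weighted libraries lay above both uncompressed libraries in 44 genes, which was so for 31.9% of all genes. RPS26 had 49.1 and 46.8 CPM under the weight against 72.0 and 70.3 CPM without it, a log2 change of -0.57 ± 0.11 (adjusted p = 0.007873). RPL39 had 290 and 294 CPM against 223 and 224 CPM (0.39 ± 0.10, adjusted p = 0.03582). The 2 libraries of each group lay close together in both genes and the groups were far apart, but either call was lost when any 1 of the 4 libraries was left out. RPL26L1 had 13.3 and 13.9 CPM under the weight against 20.5 and 19.5 CPM (-0.55 ± 0.16), with an adjusted p of 0.05001.

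The spread of the noisy dish pairs enters that test. With the membrane libraries fitted on their own (18255 genes), 5 of the 82 genes were lower and 30 higher under the weight in HepG2, where 19% of all genes were lower and 19.6% higher, and the median was 0.10. The lower genes were then RPS26 (-0.53), RPL26L1 (-0.52), RPSA (-0.14), RPL6 (-0.14) and RPLP0 (-0.13). The highest changes in that fit were those of RPL39 (0.42), RPL36A (0.41), RPL22L1 (0.36), RPS27L (0.36), RPL26 (0.34) and RPL12 (0.30). RPS26 and RPL26L1, higher in 4% PEG than in isotonic medium, had the lowest changes under the weight among the genes called in this fit. Their levels in 4% PEG were close to those in uncompressed HepG2 on membranes. RPS26 had 70.4 and 71.8 CPM in PEG against 72.0 and 70.3 CPM on those membranes. RPL26L1 had 19.8 and 17.98 CPM against 20.5 and 19.5 CPM. In the fit to all libraries the lowest change was that of RPL39L (-0.59), which has few counts in HepG2 and was not called. Of the related lists, HNRNPA1 at -0.48 ± 0.13 was the one TOP mRNA called in the fit to all libraries, 4 of 77 mitochondrial ribosomal proteins were lower (all genes in that fit: 4.18%), the hosts SNHG5 and GAS5 changed by -0.44 and 0.43, and no control gene or chaperone was called.

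In Hep3B the weight gave no call among the 82 genes. In the fit to all libraries 0 were lower and 0 higher, 0 had an unadjusted p under 0.05 and DESeq2 also called 0, where 0.172% of all genes were lower and 0.879% higher by edgeR. The median log2 change was 0.08 beside -0.01 over all genes, 67 of 82 changes lay above 0, and in 36 genes both weighted libraries exceeded both uncompressed ones, against 23.5% of all genes. RPS25 had 275 and 259 CPM under the weight against 228 and 227 CPM without it (0.23 ± 0.12; adjusted p = 0.6795), and the lowest change was that of RPL26L1 (-0.19 ± 0.16). On the membrane libraries alone 24 genes were higher and 0 lower, where 8.38% of all genes were higher and 6.86% lower, with RPS25 (0.26), RPL36A (0.24), RPL31 (0.23) and RPL15 (0.23) at the top. The median was 0.01 without the first weighted library and 0.13 without the second. No TOP mRNA, host, chaperone or mitochondrial ribosomal protein was called, while DDIT4 and DEPTOR were higher by 2.37 ± 0.18 and 1.47 ± 0.25.

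The weight effect in Hep3B minus that in HepG2 was not called for any of the 82 genes in the fit to all libraries. Of all genes 1.07% were called lower and 0.822% higher, 1 of the 82 had an unadjusted p under 0.05, DESeq2 called 1, and the median difference was 0.03 on the log2 scale. On the membrane libraries alone 3 genes had a lower and 4 a higher effect in Hep3B, where 10.3% and 12.2% of all genes did so. The effect was lower in Hep3B for RPL22L1 (-0.36), RPS27L (-0.28) and RPL39 (-0.25), and higher for RPS26 (0.51), RPL26L1 (0.37), RPL6 (0.21) and RPL27A (0.21).

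Under 3% PEG in Hep3B a single member moved far. RPS27L had 31.6 and 28.5 CPM in 3% PEG against 74.4 and 70.4 CPM in uncompressed cells, a log2 change of -1.27 ± 0.15 (edgeR, adjusted p = 0.0001155), or 2.41-fold lower. Its partner RPS27 had 493 and 481 CPM against 501 and 476 CPM, overlapping values. RPL12, at the base of the stalk, had 398 and 383 CPM in 3% PEG against 290 and 300 CPM (0.41 ± 0.10, adjusted p = 0.01527), and RPL7A, a large subunit protein, had 434 and 415 CPM against 530 and 528 CPM (-0.32 ± 0.10, adjusted p = 0.04895). The calls of RPL12 and RPL7A were each lost when any 1 of the 4 libraries was left out; that of RPS27L held in every alternative fit. In all, 2 genes were lower and 1 higher, where 11.5% of all genes were lower and 11% higher, and the median was -0.01, equal to that of all genes. On total counts alone the split was 1 lower and 3 higher, and with RLE size factors 1 and 1. The shares over all genes under these settings are not given here, so these splits are not read as results about the set.

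On the membrane libraries alone 18 genes were lower and 22 higher in 3% PEG (all genes: 25.9% lower, 26.8% higher). After RPS27L (-1.24) the low end held RPL41 (-0.36), RPS28 (-0.33) and RPL3 (-0.32), and the highest were RPLP1 (0.45), RPL12 (0.44), RPL14 (0.38), RPL26 (0.33) and RPL22L1 (0.32). These counts lie close to the shares over all genes and show nothing particular to the set. RPS27L, whose longest annotated principal transcript has 6434 bases against 359 for RPS27, has no run of the marked kind in its window, whereas RPS27 has one. A link of length or start sequence to the change of RPS27L was not tested.

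Set directly against 3% PEG, the weight gave higher levels for 7 of 82 genes and a lower level for 1, where 11.8% of all genes were higher and 11.4% lower (median 0.09 beside 0.02 over all genes). RPS27L, with 77.4 and 72.9 CPM under the weight against the 31.6 and 28.5 CPM of 3% PEG, differed by 1.32 ± 0.15 (edgeR, adjusted p = 8.783e-05). RPL41 (0.41), RPL7A (0.36), RPL6 (0.35), RPL37 (0.33) and RPL23A (0.30) were among the other genes higher under the weight, and RPL12 was lower (-0.32 ± 0.10). Without any 1 of the 4 libraries RPS27L alone was called. The split was 0 lower and 5 higher with RLE size factors, and 3 lower and 1 higher on total counts alone. Shares over all genes under these settings are not given here, and the splits are not read as results about the set. The membrane libraries alone gave 7 lower and 32 higher, where 25.5% and 26.6% of all genes were called.

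The responses to 4% PEG in HepG2 on dishes and to 3% PEG in Hep3B on membranes differed for most of the set. The 4% PEG effect was lower for 74 genes and higher for 1 (interaction, edgeR, adjusted p under 0.05), where 12.9% of all genes were lower and 12.6% higher, and the median difference was -1.37 on the log2 scale. RPL15 (-2.05), RPL5 (-1.98) and RPSA (-1.97) had the lowest differences, and RPS26 (0.56 ± 0.15) was the one higher. RPS27L, lower under both treatments, had a difference of 0.48 ± 0.20 that missed the threshold (edgeR, adjusted p = 0.1141). Line, PEG percentage, culture surface and any difference in time under treatment change together here, and cannot be told apart.

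Within HepG2 the 4% PEG effect on dishes was lower than the weight effect on membranes for 78 genes and higher for 2, where 15.5% of all genes were lower and 14.4% higher (median difference -1.46). The 2 were RPL26L1 (1.09 ± 0.23, edgeR adjusted p = 0.00347) and RPS26 (0.94 ± 0.16, adjusted p = 0.000833). Each stood higher in PEG and lower under the weight than in the control of that treatment. RPL15 (-2.30), RPL5 (-2.05) and RPSA (-2.01) lay at the other end. Kind of compression, culture surface and any difference in time under treatment cannot be told apart in this contrast.

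Most ribosomal protein genes had lower levels in uncompressed Hep3B than in uncompressed HepG2. Of 82 genes 69 were lower and 2 higher in Hep3B, where 27.1% of all genes were lower and 27.6% higher, and the median log2 difference was -0.97 beside 0.02 over all genes. Fitted on the membrane libraries alone, 76 were lower and 2 higher (all genes: 36.5% and 37.5%). Total counts alone raised the median of all genes to 0.35, and left 49 of the set lower and 4 higher with a median of -0.64. The shares over all genes on total counts are not given here, so these counts are not read as results about the set. RPS7, a small subunit protein that like RPL5 binds MDM2, had 245 and 248 CPM in Hep3B against 1003 and 1048 CPM in HepG2 (-2.06 ± 0.13; edgeR, adjusted p = 8.866e-08). RPL13 and RPS3, the second of which lies at the mRNA entry, differed by -1.91 ± 0.28 and -1.79 ± 0.18. The Hep3B libraries of these genes lay far below the HepG2 libraries.

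Against that trend 2 genes were higher in Hep3B. RPL39L had 17.5 CPM in both uncompressed Hep3B libraries (500 and 499 raw counts) against 0.357 and 0.248 CPM in HepG2 (8 and 6 raw counts). It met the name rule through its Hep3B libraries only, so its call between the lines is a description and not a test. Its partner RPL39 went the other way, with 84.1 and 78.5 CPM in Hep3B against 223 and 224 CPM in HepG2 (-1.46 ± 0.10). RPS26 had 135 and 144 CPM in Hep3B against 72.0 and 70.3 CPM in HepG2 (0.97 ± 0.11, adjusted p = 1.435e-05), and the lines did not overlap. RPL32 had 566 and 599 CPM against 544 and 561 CPM, close values that did not pass the test (0.08 ± 0.10). Of the related lists, 14 of 24 other TOP mRNAs, 9 of 11 hosts and 26 of 77 mitochondrial ribosomal proteins were lower in Hep3B, and 1, 1 and 13 were higher. Over all genes 27.1% were lower and 27.6% higher, and the mitochondrial ribosomal proteins called lower lie not far above that share.

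HepG2 on membranes without a weight differed less from HepG2 on dishes in isotonic medium. On membranes 12 of 82 genes were lower and 1 higher, where 5.33% of all genes were lower and 4.79% higher, and the median was -0.28 beside 0.01 over all genes. RPL36A, a small large-subunit protein, had 63.1 and 60.9 CPM on membranes against 140 and 104 CPM on dishes (-0.98 ± 0.20; edgeR, adjusted p = 0.01295). RPL38 (-0.66 ± 0.16) and RPL39 (-0.59 ± 0.10) followed, and RPL26L1 was higher, with 20.5 and 19.5 CPM against 11.6 and 14.6 CPM (0.61 ± 0.16, adjusted p = 0.03296). These calls rest on the spread of all groups: fitted on their own the 4 libraries gave 0 calls, and without either membrane library 0. Without the first isotonic library 36 genes were lower, and without the second 16 were lower and 3 higher; on total counts alone 7 were lower and 3 higher. The shares over all genes in these refits are not given here, so their counts are not read as results about the set. Culture surface and any difference in time or run between these sets of libraries cannot be told apart.

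Per unit length the genes spanned a wide range within each library. Levels were computed as counts per kilobase of an annotated transcript of each gene, scaled to the same sum in each library (a TPM-like level). That transcript was the longest protein-coding one tagged as principal, where any was tagged. Which transcripts the cells made was not tested, so levels and their order depend on this choice. The median gene stood at 532 in 4% PEG against 1076 in isotonic medium, at 1111 in weighted HepG2 against 1042 in uncompressed HepG2, and at 789 in weighted Hep3B and 750 in 3% PEG against 737 in uncompressed Hep3B. The genes together made 5.69% of this total in 4% PEG against 12.2% in isotonic medium, 11.5% under the weight against 11.0% without it in HepG2, and 7.70% and 7.73% under the weight and in 3% PEG against 7.22% in uncompressed Hep3B. The upper quartile was 3.00 to 3.64 times the lower quartile, depending on the group.

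RPS18 and RPS27 headed the order in uncompressed cells of both lines, RPS27 first in Hep3B (4025 ± 110 there against 3689 ± 148 in HepG2, SD, n = 2 each) and RPS18 first in HepG2 (3470 ± 112 in Hep3B against 4023 ± 153 in HepG2). RPL19, RPS24 and RPS3A followed in HepG2, and RPL19 and RPS12 were among those next in Hep3B, at 2242 ± 11.2 and 2195 ± 131, within their spread of each other. The lowest in HepG2 were RPS26 (132 ± 2.83), RPL26L1, RPS27L (35.4 ± 0.874), RPL22L1 (32.2 ± 0.848) and RPL39L (0.938 ± 0.203). In Hep3B the bottom held RPL17 (89.8 ± 3.32), RPL26L1 (70.6 ± 2.98), RPL39L (68.4 ± 0.686), RPL22L1 (34.98 ± 1.00) and RPS27L (33.3 ± 1.01); RPL26L1 and RPL39L, and RPL22L1 and RPS27L, lay within their spread of each other. RPS26 stood at 324 ± 16.8 in Hep3B, well above its HepG2 level. Taken over merged exons rather than the principal transcript, the order was similar (Spearman correlation across genes 0.859 to 0.872), but the median in uncompressed HepG2 was 563.

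**Figure D5:**
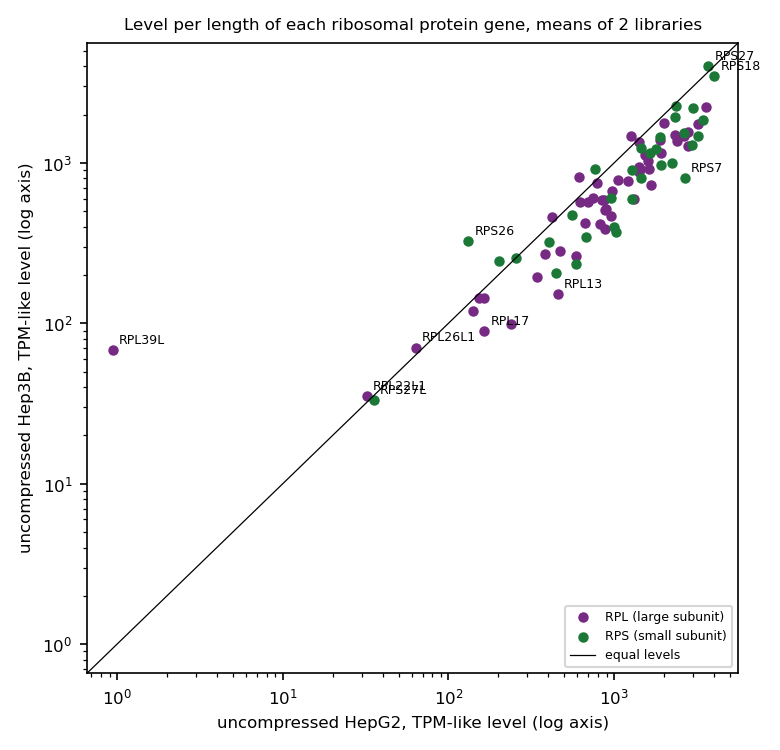
Level per length (TPM-like, log axes) of each gene in uncompressed Hep3B (vertical) against uncompressed HepG2 (horizontal), means of 2 libraries, with the line of equal levels. Most genes lie below the line, RPS26 lies above it at 324 in Hep3B against 132 in HepG2, and RPL39L stands far above it at 68.4 against 0.938.

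The genes lie on 21 chromosomes, and the longest principal transcripts, taken for their lengths, run from 344 to 7686 bases (median 1010.5). The change under 4% PEG had a Pearson correlation of -0.43 and a Spearman correlation of -0.31 with the level per length in uncompressed HepG2, and of 0.12 and -0.11 with transcript length, across the 82 genes, which share libraries and are not independent. Exons of 51 of the 82 genes overlap exons of another annotated gene, 34 of them on the same strand and 17 on the opposite strand only. Many such neighbours are small nucleolar RNAs, but RPS13 shares exon sequence with PIK3C2A on the same strand (117222 and 82199 counts over all libraries), and RPL6 lies opposite PTPN11. The sources used here do not say whether counting used strand, so values of such genes are less certain. Ribosomal protein pseudogenes are many: 1403 rows with their names held 2.54 to 5.498 counts per 100 counts in the 82 genes, highest in the first libraries of both dish groups, and the sources used here do not say how reads shared with them were assigned.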

How the data were processed

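Total RNA (RNeasy) from 14 cultures was sequenced in paired 100 bp reads. Per the labels, HiSeq and NovaSeq machines were used; the run of each library is not told. The authors deposited 1 table of raw counts per gene and library, neither pooled nor scaled. STAR, DESeq2 and GRCh38 (hg38) appear in the submitters' processing notes without versions; the sources used here name no counting tool or annotation. Columns were tied to samples by title; those called Control_Hep3b were read as uncompressed Hep3B. Of 56479 rows, 15420 carry no gene name (at most 0.308% of a library).

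The counts went into edgeR 4.0.16 (R 4.3.3). filterByExpr (minimum count 10) left 19232 genes. TMM scaled the libraries, and a robust quasi-likelihood fit took all 14 of them with a mean for each group, leaving 7 residual degrees of freedom. Benjamini-Hochberg adjustment ran over all genes tested, with a threshold of 0.05. CPM use TMM-scaled totals, except in the name rule, which uses plain totals. Beyond the words biological replicate, given for the dish libraries, nothing describes the cultures, so p-values measure the spread between these samples, which may be technical. Lengths are from GENCODE 29 and start windows from RefSeq (GRCh38.p14). The fit was run on simulated data in which each gene had the same spread in all groups. That run does not cover the unlike spreads of the dish and membrane pairs.

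Some genes that these rules take are not reported here. The genes and lists were chosen with earlier results of these data known. Named genes are the 6 lowest and 6 highest of each treatment comparison, 3 and 3 of each other contrast, paralogue forms with their partners, genes of stated roles, and the 5 most and 5 least abundant per length; RPL23A, RPL27A, RPL37 and RPS13 were named after their values were seen. Alternatives were RLE size factors, total counts, TMM without the 82 genes, no filter, 5 CPM in 2 libraries, DESeq2 1.42.0, a replicate term, the compared groups alone, the set without paralogue forms, and leaving out each library, the lone remaining one being taken to vary as the others do. Fits of the membrane libraries alone, and of the dish libraries alone with a replicate term, were chosen after seeing the data.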

Additional observations from a re-analysis of the deposited data

Results flagged for a closer look

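Both differences below were picked out because 2 responses to compression differed by the test of the difference itself (edgeR interaction, Benjamini-Hochberg adjusted p under 0.05). The first lies between 4% PEG in HepG2 on dishes and 3% PEG in Hep3B on membranes. Over all genes 12.9% had a lower and 12.6% a higher effect in HepG2. Of the 82 genes, 74 had a lower effect and 1 a higher effect there. RPL22L1 (-1.32) was among those with the lower effect, and RPS26 (0.56) was the one with the higher. RPL39L (-1.20) was also called, but it is in the set through its Hep3B libraries only, has few counts in HepG2, and lost the call under most single-library omissions, so nothing is read from it. The call for RPS26 was lost without any 1 of the 4 Hep3B libraries, without the low count filter and with only the compared groups fitted.

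Between 4% PEG on dishes and the weight on membranes, both in HepG2, 78 genes had a lower and 2 a higher effect in PEG. Over all genes the shares were 15.5% and 14.4%. RPL22L1 (-1.36) and RPS27L (-1.12) had a lower effect, and RPS26 (0.94) and RPL26L1 (1.09) a higher one. These 4 calls held in every alternative fit run, library omissions included. Line, PEG percentage and surface change together in the first difference and surface with treatment in the second. The time on membranes is not given, so any difference in time enters both.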

How the results depend on the processing

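With 2 libraries a group, differences in the membrane comparisons are small against a spread shared with the noisier dish pairs. Their counts of calls depend on which libraries enter the fit. For comparisons that use the dish groups, the shared spread may be too small. The fall under 4% PEG and the lower levels in Hep3B kept their direction in all settings. Of 4001 values of 46 named genes in 10 contrasts under other settings, 3712 kept direction and call, 72 lost the call, 215 gained one and 2 reversed; of 2392 with a library left out, 2262, 110, 20 and 0 did so. The causes were not tested, beyond the fewer libraries or genes that a setting holds. Shares over all genes are given here only for the fit to all libraries and the fit to the membrane libraries. Counts of calls under other settings are not read as results about the set.

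With RLE size factors the median was 0.10 for the weight in HepG2 and -0.94 for Hep3B against HepG2, and 5 genes were called for weight against 3% PEG. On total counts the medians were -1.03 for 4% PEG, 0.069 for 3% PEG, 0.0088 for weight against 3% PEG with 4 genes called, -0.64 for Hep3B against HepG2, -0.16 for membrane against dish, and -1.10 and -1.13 for the PEG effect against 3% PEG and against the weight. RPL7L1 under 4% PEG (0.30) and RPL24 in Hep3B against HepG2 (0.22) then reversed. Without a filter 1 gene was called for the weight in HepG2 and 5 for weight against 3% PEG, and the 3% PEG median was -0.041. With 5 CPM in 2 libraries the weight in HepG2 had 4 calls and a median of 0.11, 3% PEG 6 and membrane against dish 27. DESeq2 gave 4, 6 and 27 for the same comparisons, 1 for the weight interaction, and medians of 0.10 for the weight in HepG2 and -0.94 for Hep3B against HepG2.

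With only the compared groups, calls were 40 for the weight in HepG2 (median 0.10), 16 for the weight in Hep3B, 42 for 3% PEG, 35 for weight against 3% PEG, 0 for membrane against dish and 4 for the weight interaction. On the membrane libraries alone they were 35 (median 0.10), 24, 40 (median 0.018), 39 and, for the interaction, 7. The replicate block gave 5 calls for 3% PEG and left the other counts within 1.5 times; it gave 81 for 4% PEG. The labels do not say that equal numbers mark a pairing: deviations of equal-numbered libraries correlated across genes at 0.764 between the dish groups and at -0.112 to 0.126 elsewhere. On the dish libraries alone with the block, 78 genes were lower and 2 higher. Shares without mitochondrially encoded genes were 2.51% in 4% PEG, 4.80% in weighted HepG2, 3.05% in 3% PEG and 2.90% in uncompressed Hep3B; without paralogue forms 4.65% in weighted HepG2 and 2.93% in 3% PEG. Over merged exons the median level in uncompressed HepG2 was 563.

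Leaving out each library gave 78 to 81 calls and medians of -1.52 to -1.16 for 4% PEG, 0 to 0 calls and 0.039 to 0.062 for the weight in HepG2, 0 to 0 and 0.0089 to 0.13 for the weight in Hep3B, and 1 to 1 and -0.04 to -0.01 for 3% PEG. It gave 1 to 1 and 0.05 to 0.14 for weight against 3% PEG, 63 to 67 and -0.96 to -0.92 for Hep3B against HepG2, and 0 to 36 and -0.40 to -0.10 for membrane against dish. For the interactions it gave 0 to 0 and -0.043 to 0.077 (weight), 69 to 78 and -1.47 to -1.12 (PEG against 3% PEG), and 72 to 80 and -1.59 to -1.26 (PEG against weight).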
